A study of Mus musculus with 2 samples.

Results

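Regulators of G-protein signalling (RGS proteins) bind the GTP-loaded alpha subunit of a heterotrimeric G protein and speed up its GTP hydrolysis, which shortens the signal of the receptor that loaded it. In lymphocytes the receptors concerned are above all those for chemokines and for sphingosine-1-phosphate, which act mainly through Gi alpha subunits and steer migration. The genes described here are Rgs1, Rgs2, Rgs3, Rgs10, Rgs14, Rgs16, Rgs18 and Rgs19, chosen by name. They are 8 of the 55536 annotated genes measured, and 8 of the 22 genes with RGS family symbols that were looked up. By subfamily, Rgs1, Rgs2, Rgs3, Rgs16 and Rgs18 are R4 genes, whose proteins are mostly little more than the RGS domain. Rgs10 and Rgs14 belong to the R12 subfamily and Rgs19 to the RZ subfamily.

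They were measured by polyA plus RNA-seq in regulatory T cells, the Foxp3-dependent CD4 T cells that restrain immune responses. The RNA came from a single male mouse aged 4 months, which carried a Foxp3 allele that expresses the tamoxifen-dependent recombinase CreERT2 and a Rosa26 YFP reporter. Whether that mouse received tamoxifen, and how the cells were sorted, is not given in the sources used here; the labels trace the cells to a haematopoietic cell of the bone marrow. There is 1 group of 2 technical libraries, called library 1 and library 2 by their replicate number. The data therefore give levels and a comparison of libraries, with no comparison of conditions and no measure of variation between animals. Every SD below is over these 2 libraries and is technical.

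Library 1 held 15821759 and library 2 held 16153560 estimated gene counts. All 4 T cell markers (Cd3e, Cd3g, Cd4, Trac) and all 4 regulatory T cell markers (Foxp3, Il2ra, Ctla4, Ikzf2) were expressed, that is at 1 TPM or more (TPM being a share of all transcripts, scaled for length and depth) in both libraries. Of the B cell markers 1 of 5 was expressed, Cd79b at 33.2 and 33.3 TPM, while the pan-B-cell surface gene Ms4a1 stood at 0.88 and 0.09 TPM. Of the other marker lists, 2 of 6 myeloid, 3 of 4 NK cell, 0 of 5 megakaryocyte and platelet, 0 of 4 mast cell and basophil and 0 of 4 dendritic cell genes were expressed. In a bulk sample, fewer cells that express a gene and less of its RNA per cell cannot be told apart.

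Of the 8 genes, 7 were expressed, beside 24.3% of all annotated genes (13471 of 55536). Their median level over all 8 was 46.9 TPM, beside a median of 13.5 TPM over all expressed genes and 18.5 TPM over the 10251 expressed protein-coding genes. Rgs1 and Rgs10 stood highest, followed by Rgs19. These 3 genes made up 86.2% of the summed TPM of the 22 RGS family genes in library 1 and 87.8% in library 2. The order of levels was Rgs1, Rgs10, Rgs19, Rgs14, Rgs3, Rgs2, Rgs16 and Rgs18. No neighbours in that order had overlapping ranges over the libraries, but the gap was narrow between Rgs1 (lowest 403 TPM) and Rgs10 (highest 402 TPM). The ratio of neighbours was 1.10 and 1.09 for Rgs1 over Rgs10 in the respective libraries, and 1.22 and 1.42 for Rgs14 over Rgs3.

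**Figure D1:**
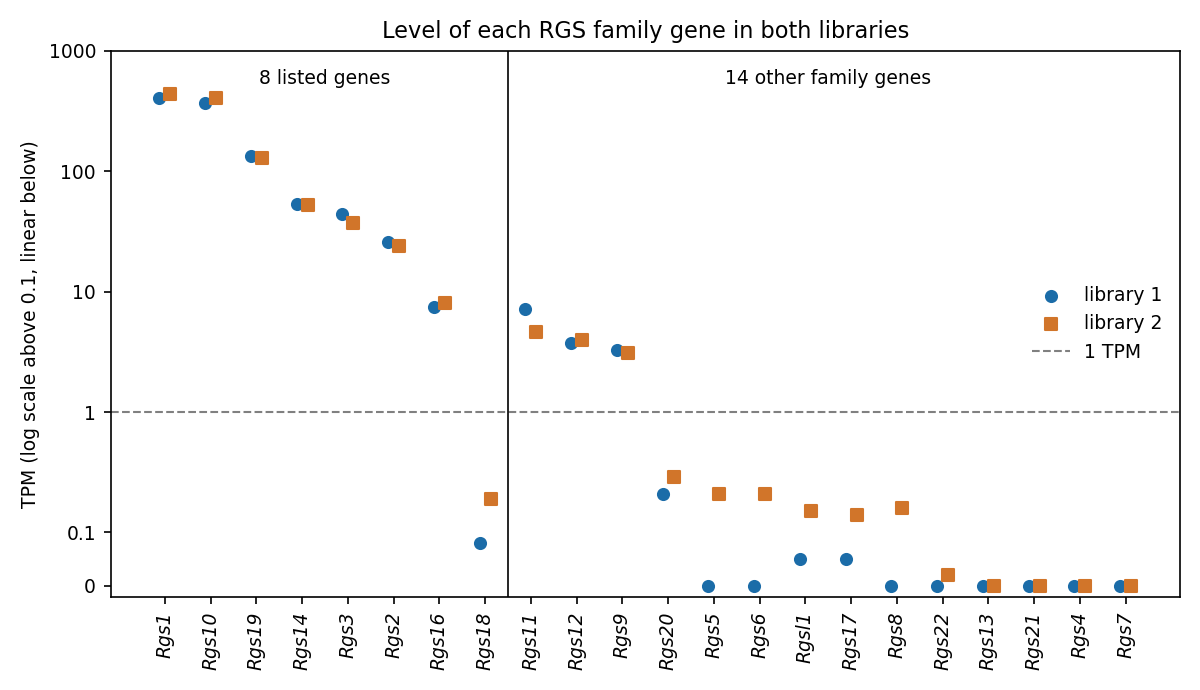
TPM of the 8 genes and of the 14 other RGS family genes (vertical axis, logarithmic above 0.1 TPM and linear below) in library 1 (circles) and library 2 (squares), each set ordered by mean level. Rgs1 and Rgs10 sit near 400 TPM, Rgs18 lies under the dashed line at 1 TPM, and of the other family genes 3 lie above it.

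The R4 genes are built alike towards the end of the coding sequence. The penultimate coding exon, which encodes a part of the RGS domain, was 167 bases long in Rgs2, Rgs3, Rgs16 and Rgs18 and 164 bases in Rgs1, and the coding exon before it was 62 bases long in all 5. The exon is printed here for the 4 genes of equal length because it shows where the sequences of closely related members differ. How reads were assigned between members was not tested. Capitals mark the 78 bases (46.7%) that are the same in all 4. The positions are on mm10, as chr1:144002116-144002282 (minus strand) for Rgs2, chr4:62701034-62701200 (plus) for Rgs3, chr1:153741963-153742129 (plus) for Rgs16 and chr1:144755923-144756089 (minus) for Rgs18.
Rgs2: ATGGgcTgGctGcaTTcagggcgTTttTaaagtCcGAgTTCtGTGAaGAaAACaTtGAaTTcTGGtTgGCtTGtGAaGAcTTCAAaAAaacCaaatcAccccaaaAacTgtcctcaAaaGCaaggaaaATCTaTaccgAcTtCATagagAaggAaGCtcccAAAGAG
Rgs3: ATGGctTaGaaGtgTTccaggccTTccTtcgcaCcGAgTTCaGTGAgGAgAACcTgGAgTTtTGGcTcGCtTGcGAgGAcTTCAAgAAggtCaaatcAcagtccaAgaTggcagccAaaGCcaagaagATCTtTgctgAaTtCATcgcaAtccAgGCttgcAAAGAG
Rgs16: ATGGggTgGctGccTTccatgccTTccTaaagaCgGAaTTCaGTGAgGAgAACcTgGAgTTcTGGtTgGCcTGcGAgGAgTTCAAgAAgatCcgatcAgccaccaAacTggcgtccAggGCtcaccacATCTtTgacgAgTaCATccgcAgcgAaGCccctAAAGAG
Rgs18: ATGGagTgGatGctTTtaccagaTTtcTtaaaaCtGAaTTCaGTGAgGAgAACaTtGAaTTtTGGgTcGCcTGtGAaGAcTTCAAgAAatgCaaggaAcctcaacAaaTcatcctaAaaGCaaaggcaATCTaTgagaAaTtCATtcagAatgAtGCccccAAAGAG
Between pairs of these 4 exons 61.1% to 70.1% of bases were identical, with the highest value for Rgs2 and Rgs18. The longest run shared by the penultimate coding exons of any pair of the 8 genes was 23 bases (Rgs1 with Rgs2, and Rgs3 with Rgs16). None of the 50-base windows of one of the 8 genes occurred in another of them, 50 bases being the read length that the tables' effective lengths imply. The RZ gene Rgs19 had a penultimate coding exon of 235 bases, as did its relatives Rgs17 and Rgs20.

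A run of 5 of the family's genes lies side by side on chromosome 1, all on the minus strand. In genome order they are Rgs2, Rgs13, Rgs1, Rgs21 and Rgs18, within 776 kb (chr1:143999338-144775435) that holds no other protein-coding gene. Their levels ran from the highest of the family to none detected. Rgs1 (144242296 to 144249242) was at 403 and 439 TPM. Its neighbours Rgs13, which lies 64923 bases away, and Rgs21, 267405 bases away, each had 0 counts in both libraries, which allows up to 0.190 CPM (counts scaled to the library total) in library 1 and 0.186 in library 2 (3 counts of the total, counting error only). Rgs2 at one end of the stretch was at 25.8 and 24.1 TPM and Rgs18 at the other end at 0.08 and 0.19 TPM.

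Rgs1 (ENSMUSG00000026358.13), which is induced in activated lymphocytes and limits their response to chemokines, had the highest level of the family. Its TPM was 403 in library 1 and 439 in library 2 (421 ± 25.0, SD, n = 2), from 6503 and 7521 counts. It ranked 327 among all annotated genes. None of its 7190 windows of 50 bases occurred in another gene. The level, however, rests on which transcripts the reads were given to. TPM divides counts by the mean length of the gene's transcripts, weighted by their estimated shares, and for Rgs1 these were short, with effective lengths of 1297 and 1315 bases. With the length of its complete coding transcript, Rgs1-208 (3841 bases), the level was 138 and 152 TPM (145 TPM on average). Rgs10 computed in the same way was at 363 and 399 TPM (381 ± 25.3), so that under this length Rgs10 led the family and Rgs1 came second. This calculation was added after the data had been seen.

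The transcript tables placed little of Rgs1 on a complete coding transcript. Rgs1-204, annotated for nonsense-mediated decay, the pathway that removes mRNAs with an early stop codon, had 61.8% of the gene's TPM in library 1 and 58.9% in library 2 (60.3 ± 2.05, SD, n = 2). The retained-intron transcript Rgs1-203 had 20.7% and 22.9%, and Rgs1-206, also of the decay class, had 8.03% and 11.2%. All 4 decay-class transcripts together had 74.3% and 74.2%. Rgs1-208, the only transcript of the gene with a complete reading frame, had 0.06% and 0.03%. Rgs1-204 and Rgs1-208 differ at the start of exon 2, and the junction of Rgs1-204 occurs in no other Rgs1 transcript. In Rgs1-204 the reading frame ends in TAA after 46 codons, against 209 codons in Rgs1-208.

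The shares of Rgs1 transcripts rest on few positions that separate them. Of the 1279 windows of Rgs1-204, 1181 also lie in Rgs1-208 and 48 lie in no other Rgs1 transcript. Rgs1-203 and Rgs1-206 have no window of their own. By counts the short Rgs1-203 held 5.83% of the gene in library 1 and 6.37% in library 2. Rgs1-208 extends 2377 bases past the 3′ end of Rgs1-204 and has 1099 windows of its own, yet it received 11.4 and 6.47 counts in all. No complete coding Rgs1 transcript with the shorter 3′ end is in the annotation. The tables give no reads per junction, so how much Rgs1 RNA carried either junction was not tested.

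**Figure D2:**
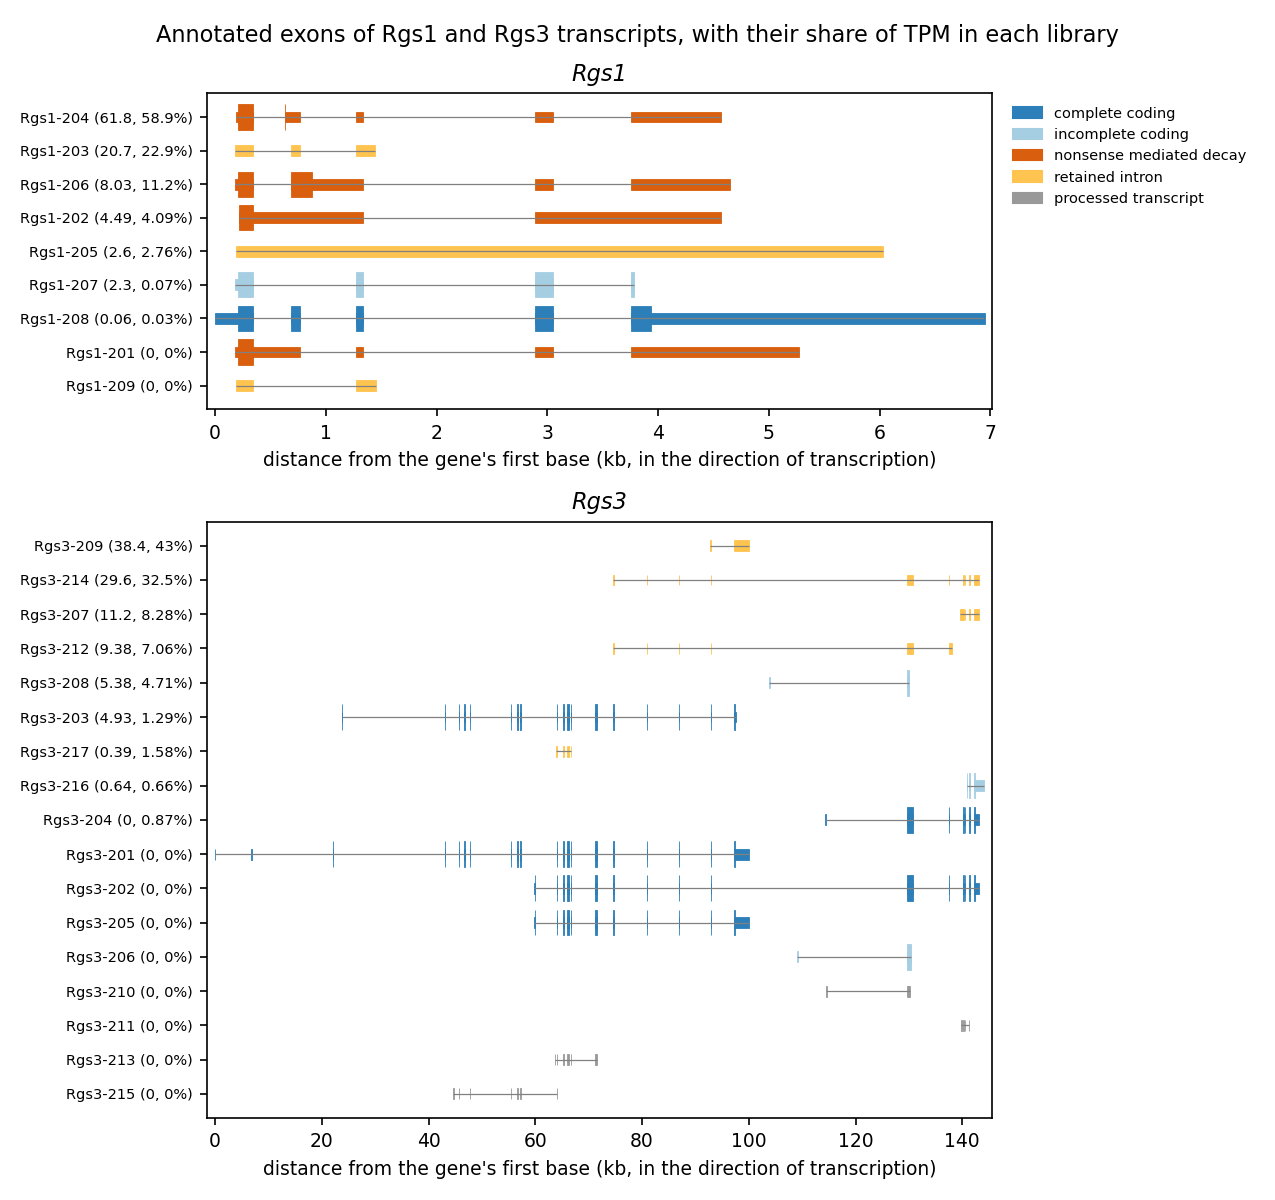
Exons of each annotated Rgs1 and Rgs3 transcript against the distance from the gene's first base in kb, coloured by annotation class, with tall boxes for coding bases and the percent of the gene's TPM in library 1 and library 2 in brackets. Rgs1-204 leads for Rgs1 and shares most of its sequence with Rgs1-208, which alone runs to the far 3′ end; for Rgs3, Rgs3-209 ends before the exons that Rgs3-214 goes on to.

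Rgs2 (ENSMUSG00000026360.9, chromosome 1, 143999338 to 144004161, minus strand), best known for acting on Gq alpha subunits, was at 25.8 TPM in library 1 and 24.1 TPM in library 2 (24.9 ± 1.21). Its counts were 353 and 349. With the length of its complete coding transcript Rgs2-202 (3021 bases) it was at 9.55 and 9.01 TPM, 2.68-fold lower on the mean. Its 4 transcripts each passed 10% of the gene's TPM. The decay-class Rgs2-201 had 33.7% and 30.4%, the short complete coding Rgs2-204 25.3% and 25.2%, the retained-intron Rgs2-203 20.9% and 23.6%, and Rgs2-202 20.2% and 20.8%. By counts instead of TPM the long Rgs2-202 led, with 54.4% and 55.5%, since a longer transcript gives more reads per molecule. Rgs2-201 keeps the 110 bases of intron 2, and its frame ends in TAA after 71 codons against 211 in Rgs2-202. The 30 bases across the end of exon 2 are shown because they are what a read must cross to tell the forms apart, with capitals after that end (mm10, chr1:144002952-144002966, minus strand).
Rgs2-202: gcaaacttttatcaaGCCTTCTCCTGAGGA
Rgs2-201: gcaaacttttatcaaGTAAGTTTCGGATCC
The first continues at chr1:144002827-144002841 and is shared by Rgs2-202 and Rgs2-204. The second continues into the intron at chr1:144002937-144002951 and is shared by Rgs2-201 and Rgs2-203, so reads across it fit either of these.

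Rgs3 (ENSMUSG00000059810.18, chromosome 4, 62559847 to 62704001, plus strand) encodes long and short proteins that differ in what precedes the RGS domain. Some annotated coding transcripts, among them Rgs3-203, end before the penultimate coding exon printed above for Rgs3. The gene was at 44.1 TPM in library 1 and 37.2 TPM in library 2 (40.6 ± 4.88), from 1378 and 1255 counts. With the length of the complete coding transcript Rgs3-202 it was at 28.9 and 25.1 TPM. Of its windows, 11.4% also occur in the processed pseudogene Gm5763, which had 0 and 3 counts. Transcripts annotated as retained introns held 89.1% and 92.5% of its TPM. They were led by Rgs3-209 with 38.4% and 43.0%, followed by Rgs3-214 with 29.6% and 32.5% and Rgs3-207 with 11.3% and 8.28%. Of its 2956 windows Rgs3-209 has 142 of its own, and Rgs3-214 has 0 among 2814. The last exon of Rgs3-209 is also that of the complete coding Rgs3-201 and Rgs3-205. How much Rgs3 RNA kept an intron was not tested. The 5 complete coding transcripts together held 4.93% and 2.16%. Of these, Rgs3-203, which lacks the exon printed above, held 4.93% and 1.29%. Rgs3-204, which contains it, held 0% and 0.87%, and Rgs3-202, which also does, 0% in both libraries.

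Rgs3 transcripts divide into those that reach the last coding exons and those that end before them. The RGS domain of the Rgs3 protein lies at its C-terminal end, and its penultimate coding exon is the one printed for Rgs3 among the R4 exons. Transcripts that contain this exon held 41.5% of the Rgs3 TPM in library 1 and 42.3% in library 2, and those without it 58.5% and 57.7%. By counts the shares with the exon were 41.7% and 42.7%. Rgs3-209 and Rgs3-214 leave the same exon end by different junctions, shown with capitals after the junction (mm10, plus strand, from chr4:62652822-62652836).
Rgs3-209: cctacagagaggaagAAACTTCACCCTTAC
Rgs3-214: cctacagagaggaagATGTTTGAGACAGAG
The first leads to an early last exon at chr4:62657103-62657117 and is also in Rgs3-201, Rgs3-203 and Rgs3-205. The second passes over that exon to chr4:62689499-62689513 and is also in Rgs3-202 and Rgs3-212.

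Rgs16 (ENSMUSG00000026475.7, chromosome 1, 153740349 to 153745468, plus strand), an activation-induced gene of T cells, was the lowest of the expressed members. Its TPM was 7.49 in library 1 and 8.09 in library 2 (7.79 ± 0.424), from 213 and 242 counts. It has a single annotated transcript, so its level involves no choice of transcript length. The antisense gene Gm28513 overlaps it by 1917 bases and shares 8.34% of its windows on the other strand. That gene had 11 and 2 counts.

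Rgs18 (ENSMUSG00000026357.3, chromosome 1, 144752683 to 144775435, minus strand), known from megakaryocytes and platelets, was not expressed by the rule. It had 2 counts in library 1 and 5 in library 2, or 0.126 and 0.310 CPM, close to the 0.190 and 0.186 CPM that a count of 0 would allow. The megakaryocyte and platelet markers (Pf4, Ppbp, Itga2b, Gp1ba, Gp9) were at 0 counts in both libraries for 3 of 5 genes, and their summed level was 0.59 and 0.56 TPM.

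Rgs10 (ENSMUSG00000030844.11, chromosome 7, 128373621 to 128418758, minus strand), an R12 gene whose small protein acts on Gi alpha subunits, stood beside Rgs1 at the top. It was at 367 TPM in library 1 and 402 TPM in library 2 (384 ± 25.1), from 3754 and 4324 counts. In contrast to Rgs1, its level hardly depended on transcripts. The complete coding Rgs10-201 held 98.0% and 98.4% of its TPM, and coding transcripts alone gave 363 and 398 TPM. None of its 1650 windows occurred in another gene.

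Rgs14 (ENSMUSG00000052087.14, chromosome 13, 55369732 to 55384687, plus strand), whose protein joins the RGS domain to Ras-binding domains and a GoLoco motif that holds Gi alpha in its GDP form, was at 53.6 and 52.8 TPM (53.2 ± 0.608). Its counts were 1524 and 1548. The complete coding Rgs14-201 held 92.8% of its TPM in library 1 and 85.5% in library 2. The retained-intron Rgs14-202 held 4.2% and 11.2%, but its TPM intervals in the deposited tables overlapped (0.00013 to 7.86, and 2.07 to 10.1) and it has no window of its own.

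Rgs19 (ENSMUSG00000002458.13, chromosome 2, 181688419 to 181693977, minus strand), the gene of the Gi-directed protein also called GAIP, was at 135 and 129 TPM (132 ± 4.04). Its counts were 2098 and 2233. Complete coding transcripts held 84.9% and 90.4% of its TPM. Its leading transcript Rgs19-201 moved more between libraries than that of any other member, from 53.2% to 64.9%, and has 28 windows of its own among 1462. The incomplete coding Rgs19-211 had 11.1% and 6.74%.

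Across the 8 genes, 54 transcripts are annotated and 17 reached 10% of their gene's TPM in either library. Both libraries had the same leading transcript by TPM for 8 of 8 genes, and it was complete coding for 5 of them (Rgs10, Rgs14, Rgs16, Rgs18, Rgs19). For 2 of these, Rgs16 and Rgs18, only 1 transcript is annotated, so their leading transcript was fixed in advance. By counts the complete coding Rgs2-202 led for Rgs2, with 54.4% and 55.5%. Counting TPM of protein-coding transcripts alone left Rgs10 at 381 TPM, Rgs19 at 127 TPM and Rgs14 at 47.4 TPM. It left Rgs2 at 11.4 TPM, Rgs3 at 3.81 TPM (4.82 and 2.80) and Rgs1 at 4.96 TPM (9.50 and 0.42).

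**Figure D3:**
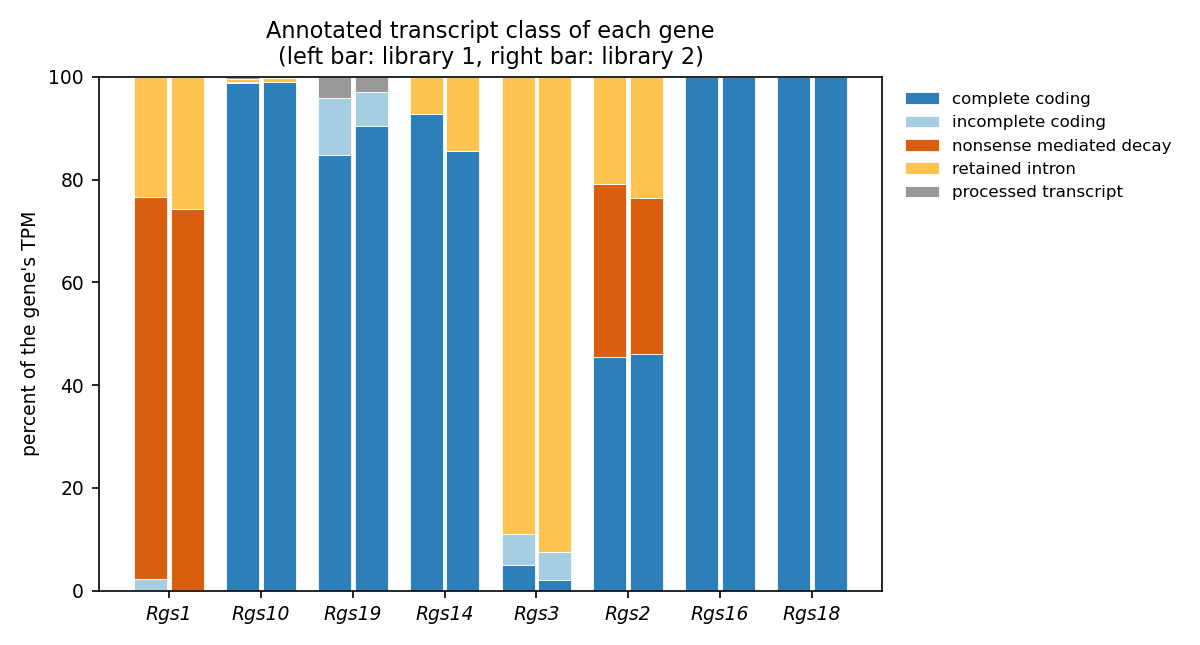
Percent of each gene's TPM on each class of annotated transcript, with the left bar for library 1 and the right bar for library 2. Complete coding transcripts hold 84.9% or more in Rgs10, Rgs19, Rgs14, Rgs16 and Rgs18, and under 50% in Rgs1, Rgs3 and Rgs2. By counts, which are not drawn, they hold 66.8% and 67.8% in Rgs2.

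**Figure D4:**
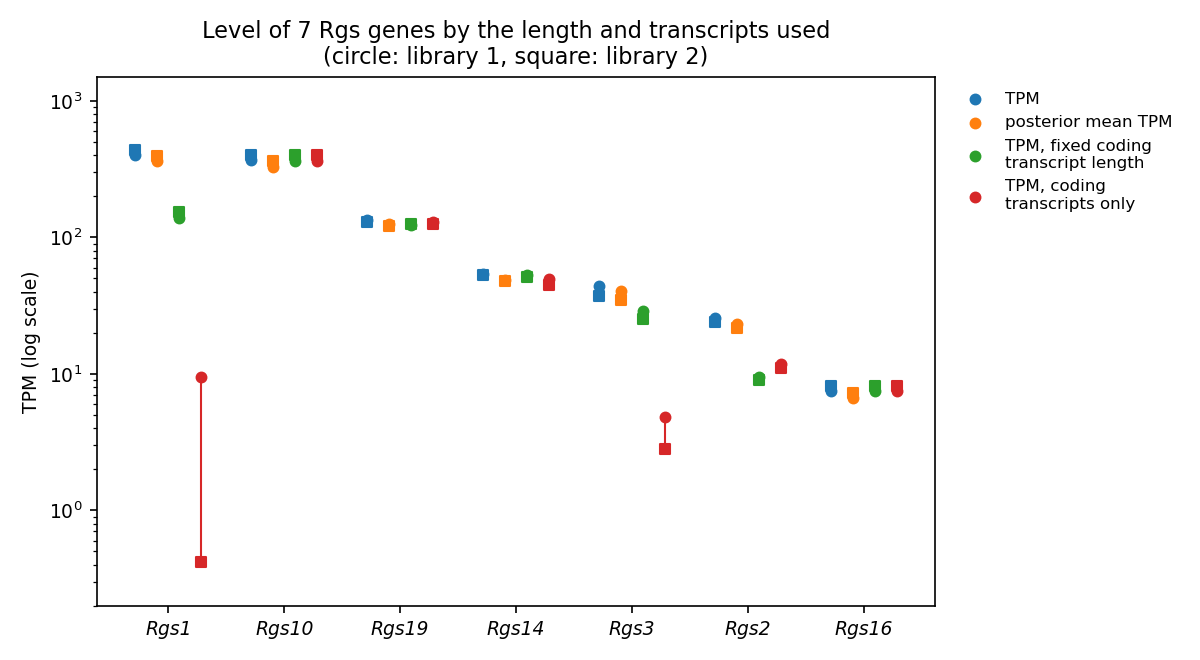
TPM of the 7 expressed genes on a logarithmic axis in 4 versions, with circles for library 1, squares for library 2 and lines joining them: as deposited, as posterior mean, with the length of the reference coding transcript, and over protein-coding transcripts alone. The versions lie close together for Rgs10, Rgs19, Rgs14 and Rgs16 and apart for Rgs1, Rgs3 and Rgs2.

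The libraries were compared on counts with an exact two-sided binomial test, adjusted over all genes tested. It covers counting error only and compares these libraries, not conditions. Of the 8 genes 7 had enough counts to test, and 3 passed at an adjusted p of 0.05, beside 25.1% of all genes tested. Rgs1 was higher in library 2 by 0.18 on the log2 scale (95% interval 0.13 to 0.23, exact binomial adjusted p 2.11e-11). Rgs10 was higher in library 2 by 0.17 (0.11 to 0.24, exact binomial adjusted p 2.21e-06). Rgs3 had a log2 ratio of library 2 over library 1 of -0.17 (-0.28 to -0.05, exact binomial adjusted p 0.0175). None of them reached a 1.5-fold difference, beside 8.82% of genes that passed with it. With the spread that all genes show between the libraries (edgeR exact test, common dispersion, a coefficient of variation of 13.0%), 0 of 7 passed, beside 2.00% of all genes. At an unadjusted p of 0.05 the binomial test passed 3 of 7 and the edgeR exact test 0 of 7. The share of all genes at that unadjusted p is not given here, so these counts have no background to be read against.

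For comparison, among the 9741 genes whose counts summed to at least 200, the median absolute log2 ratio was 0.13 and 31.8% passed the binomial test. The 3 members that passed lay above that median, as did Rgs16, which did not pass. The other 4 tested members had log2 ratios of 0.06 (Rgs19), -0.01 (Rgs14), -0.05 (Rgs2) and 0.15 (Rgs16), with exact binomial adjusted p from 0.358 to 0.952. In the smaller gene tables, made with an older annotation, Rgs3 alone of the members passed, beside 10.5% of all genes tested there. It had 207 and 142 counts, a log2 ratio of -0.53 and an exact binomial adjusted p of 0.0110. There Rgs1 had 1214 and 1285 counts and a ratio of 0.09 (exact binomial adjusted p 0.373). The markers of other cell types summed to 35.1 and 35.3 TPM for B cells, 5.36 and 8.48 TPM for myeloid cells and 11.8 and 10.5 TPM for NK cells, and their part in the members' differences was not tested. Among these markers, 2 passed both the binomial test and the edgeR exact test with the common dispersion. Ms4a1 had 30 counts in library 1 and 3 in library 2 (edgeR adjusted p 0.00244), and the myeloid receptor gene Csf1r 44 and 12 (edgeR adjusted p 0.0270), the reverse of the order of the myeloid sum.

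**Figure D5:**
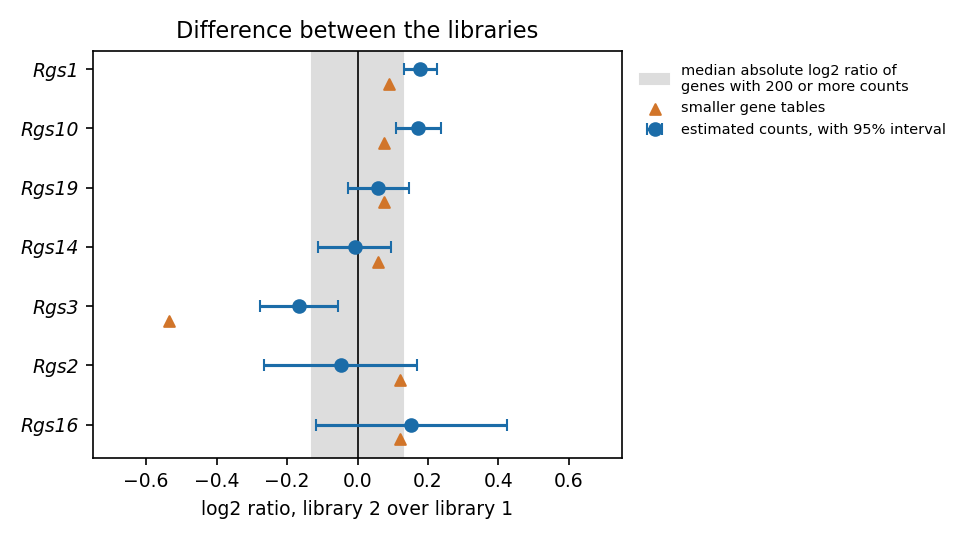
Log2 ratio of library 2 over library 1 for the 7 tested genes, as circles with 95% intervals from the estimated counts and as triangles from the smaller gene tables, with the median absolute ratio of 0.13 among well-counted genes shaded. Rgs1, Rgs10 and Rgs3 have intervals clear of 0, and the Rgs3 triangle at -0.53 lies farthest out.

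Those smaller tables hold 3746426 and 3680387 whole-number counts and rank the members almost alike by CPM. Rgs14 (219 and 230 CPM) stood above Rgs19 (207 and 221 CPM) there, with overlapping ranges, against 96.3 and 95.8 CPM for Rgs14 and 133 and 138 CPM for Rgs19 in the larger tables. For Rgs1 the smaller tables gave 324 and 349 CPM, or 0.768 of the larger tables' CPM, and for Rgs3 55.3 and 38.6 CPM, or 0.569. Over 8935 genes that ratio had a median of 1.70 and quartiles of 0.981 and 2.42. CPM is not scaled for length, so these values rank reads and not molecules.

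The rest of the family was low. Of the 14 other RGS genes 3 were expressed, the median over all 14 was 0.0975 TPM, and 4 (Rgs4, Rgs7, Rgs13, Rgs21) had 0 counts in both libraries. Rgs11, an R7 gene, was at 7.11 and 4.61 TPM (5.86 ± 1.77) and Rgs9, of the same subfamily, at 3.25 and 3.12 TPM. Rgs12, an R12 gene like Rgs10 and Rgs14, was at 3.73 and 3.96 TPM. Gnb5, the beta subunit that R7 proteins bind, was at 7.20 and 6.72 TPM. The binomial test passed 2 of the 4 other RGS genes with enough counts, beside 25.1% of all genes tested. These were Rgs11 (log2 ratio -0.59, exact binomial adjusted p 0.00992) and Rgs5, named after its values were seen, with 0 counts in library 1 and 11 in library 2. Neither passed the edgeR exact test with the common dispersion (adjusted p 0.666 and 0.0640).

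The substrates of RGS proteins are the G alpha subunits. Of the Gi class 3 of 8 were expressed, led by Gnai2 at 124 and 104 TPM (114 ± 14.6) and Gnai3 at 73.5 and 73.2 TPM, with Gnat1 at 1.03 and 1.19 TPM. Both Rgs1 and Rgs10 stood above Gnai2 in each library on the deposited TPM scale. All 4 genes of the Gq class, the substrates of Rgs2, were expressed, with Gna11 at 20.7 and 21.2 TPM, Gna15 at 19.7 TPM and Gnaq at 15.2 TPM. The Gs class held 2 of 2, led by Gnas at 95.5 TPM, and the G12 class 2 of 2, led by Gna13 at 42.6 TPM. Of the beta subunits 4 of 5 were expressed, with Gnb1 at 220 TPM, Gnb2 at 54.4 TPM and Gnb4 at 8.95 and 7.05 TPM. Of the gamma subunits 5 of 12 were, with Gng5 at 276 TPM, Gng10 at 83.9 TPM and Gngt2 at 44.3 TPM. Between libraries, beside 25.1% of all genes tested, the binomial test passed 1 of 4 tested Gi genes (Gnai2, higher in library 1), 2 of 4 beta genes, both higher in library 1, and none of the Gq, Gs, G12 or gamma genes. None of the subunit genes passed the edgeR exact test with the common dispersion.

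Upstream stand the receptors. Of 19 Gi-coupled lymphocyte receptors 17 were expressed, and the list's median was 22.4 TPM. The chemokine receptor gene Ccr7, which guides cells into lymph nodes, was at 210 TPM, the sphingosine-1-phosphate receptor gene S1pr1, which guides them out, at 143 TPM, and Cxcr3 at 114 TPM. The binomial test passed 7 of 19, beside 25.1% of all genes tested, of which 5 were higher in library 2 and 2 in library 1. Of these the leukotriene B4 receptor gene Ltb4r1 differed most, at 1.55 and 3.36 TPM (log2 ratio 1.14, exact binomial adjusted p 0.00381). Of 6 Gs-coupled receptors 4 were expressed, with Ptger2 at 38.6 TPM, Ptger4 at 21.8 TPM and Adora2a at 15.8 TPM, and the binomial test passed these 3, with Ptger4 and Adora2a higher in library 1 and Ptger2 higher in library 2. The edgeR exact test with the common dispersion passed none of either receptor list (adjusted p 0.196 for Ltb4r1).

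Receptor kinases and arrestins, other G protein modulators and downstream effectors were present too. Their counts of passing genes are again to be read beside the 25.1% of all genes tested. Of the receptor kinases and arrestins 5 of 7 were expressed, led by Grk2 at 68.8 TPM, Arrb2 at 36.9 TPM and Grk6 at 28.2 TPM, and 1 of 6 tested passed. Of the other G protein modulators 7 of 8 were expressed, led by Gpsm3 at 164 TPM, Ric8a at 48.6 TPM and Gipc1, which encodes a binding partner of the Rgs19 protein, at 14.1 TPM. Of these 8 genes 4 passed, all higher in library 1, with log2 ratios of -0.61 for Gipc1 and -1.14 for Gpsm2. Of the effectors 13 of 16 were expressed, led by Prkar1a at 326 TPM, Arhgef1 at 148 TPM and Prkacb at 94.1 TPM. The RhoA exchange factor encoded by Arhgef1 itself carries an RGS-like domain. Of 15 effectors tested 7 passed, all higher in library 1, with Plcb3 at a log2 ratio of -0.61. With the common dispersion the edgeR exact test passed none of the genes in these 3 lists.

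Rgs1, Rgs2 and Rgs16 are known as genes that cell activation induces quickly, so the early response genes are given beside them. Of these 16 of 18 were expressed (list median 21.1 TPM), led by Nfkbia at 502 TPM, Btg2 at 174 TPM and Zfp36 at 116 TPM. The binomial test passed 8 of 18, beside 25.1% of all genes tested and 31.8% of well-counted genes, with 3 higher in library 2 and 5 in library 1. Of the genes that passed, the phosphatase gene Dusp1 differed most, at 47.2 TPM in library 1 and 18.3 TPM in library 2 (log2 ratio -1.45). It was the only gene of the list that also passed the edgeR exact test with the common dispersion. Nr4a3 had a log2 ratio of -0.64. Rgs1 was higher in library 2, and Rgs2 and Rgs16 did not pass. What part the handling of the cells had in any of these levels was not tested.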

How the data were processed

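PolyA plus RNA-seq tables of both technical libraries were used. Per the deposited readme texts they are on mm10, with GENCODE M21 for the larger tables and GENCODE M4 for the smaller gene tables. Not given in the sources used here are the aligner, the versions and, for the M4 tables, the counting tool and strand setting. The larger tables carry RSEM column names. Their expected counts are the authors' unscaled estimates, rounded here for tests. The deposited TPM (with interval bounds, treated as a signal) and the authors' FPKM are scaled for length and depth. The percent of a gene's TPM per transcript is the authors' value. The M4 count tables were deposited as whole numbers.

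Members, lists and tests were chosen with earlier results of these data known. Genes whose counts summed to at least 10 were tested by an exact two-sided binomial test (binom.test in R 4.3.3) against shares from TMM library sizes (edgeR 4.0.16), with Benjamini-Hochberg adjustment at 0.05. One library a side leaves no residual degrees of freedom, so p-values measure counting error between technical libraries. Log2 ratios used a prior count of 0.5. The test was tested on simulated counts that held counting error only, the error it assumes. That run cannot show how the test behaves under further spread between libraries. DESeq2 1.42.0 gave other size factors. Intervals are at 95%. Windows of 50 bases, junctions (15 bases a side) and exons came from the M21 transcripts. Named were all members, other RGS genes at 1 TPM or more, the 3 highest genes of each list other than the markers and those that passed with a 1.5-fold difference, and member transcripts at 10% or more. No protein sequences were used. The junction sequences of Rgs1 are not reported here.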

Additional observations from a re-analysis of the deposited data

How the results depend on the processing

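The 7 members expressed at 1 TPM stayed 7 at 0.5 and 5 TPM, in either library alone and with the coding transcript length. They were 6 at 10 TPM, where Rgs16 dropped out. Over protein-coding transcripts they were 6 as well, but there Rgs1 dropped out, at 9.50 and 0.42 TPM. The 3 other RGS genes expressed fell to 0 at 5 TPM. The 3 members that passed between libraries became 0 with the edgeR common dispersion, 0 with a 1.5-fold difference required and 1 with the M4 counts. The share of all genes that passed, 25.1%, became 2.00%, 8.82% and 10.5% in these settings, and 13.5% with no filter beyond a summed count of 1. With total counts, DESeq2 size factors or a summed count of 50 it was 25.1%, 25.5% and 29.5%, and 3 members passed. The log2 ratio of Rgs14 was 0.015 with DESeq2 size factors and 0.058 with the M4 counts, where that of Rgs2 was 0.12 and that of Rgs18 -1.21; none of these 3 genes passed in any setting, and the cause was not tested. No paired analysis was possible because both libraries belong to 1 group. Leaving out a library leaves no comparison of libraries, so it was run for levels and shares only. Depth limits Rgs18, with 2 and 5 counts.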
